A study of Mus musculus with 26 samples.

Results

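The comparison described here set 3 RNA-seq libraries of Gli1+ mesenchyme from XX (female) mouse embryos against 3 from XY (male) embryos, all at E16.5 (embryonic age in days), across autosomal genes. The libraries were chosen by their labelled age and sex, and they are 6 of the 26 samples of the series. Of 41442 gene rows in the fetal table, 39066 lay on chromosomes 1 to 19, and 17257 of these passed the filter on low counts and were tested. The cells were sorted from mesonephros, dissociated with TrypLE, of embryos carrying Gli1-CreER and Rosa-Tomato, and dams received 1 mg of tamoxifen at E12.5 and again at E13.5. Both sexes therefore carried the same driver, the same reporter and the same drug exposure. Gli1+ libraries of both sexes at E14.5, from the same alleles and doses, were used for 1 comparison of ages, and libraries of the neonatal uterus were not used here. The reporter marks cells that expressed Gli1 while tamoxifen was active, together with their descendants, so a labelled cell need not express Gli1 at E16.5, and mesenchyme that was Gli1-negative at labelling is not represented. The labels do not say whether the libraries of a group came from separate embryos, litters or pools, so p-values measure the spread between these samples.

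The mesonephros holds the primordia of both reproductive tracts: the Wolffian ducts, which form the epididymis and vas deferens, and the Müllerian ducts, which form the oviduct, uterus and upper vagina. In XY fetuses, testicular androgen maintains the Wolffian ducts, and anti-Müllerian hormone acts through its receptor in the mesenchyme to remove the Müllerian ducts. In XX fetuses the Wolffian ducts are lost. The mesenchyme around the ducts sends signals of the Wnt, BMP and FGF families to the epithelium and later forms the stroma and smooth muscle of the tract. Gli1 is a transcription factor and a target of hedgehog signalling, in which a ligand binds the receptor Ptch1 and thereby frees Smo to activate Gli factors.

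Total counts ran from 38433747 to 64602477 over the 6 libraries, and a floor of 3 counts corresponded to 0.0485 to 0.0801 CPM (counts scaled to a common library size by TMM). The long noncoding RNA Xist measured 3162 to 3505 CPM in XX and 0.372 to 0.557 CPM in XY libraries, and the Y-linked Ddx3y measured 0.126 to 0.246 and 104 to 137 CPM, so no sex label was contradicted. Correlations of log2 CPM between libraries were 0.987 to 0.994 within a sex and 0.975 to 0.981 between sexes. The first principal component held 58.7% of the variance and separated the sexes. The second held 18.5% and ran from 36.19 in XY replicate 1 to -24.38 in XY replicate 3 and -24.9 in XX replicate 3. XY replicate 1 also had the lowest summed level of 15 immediate-early and heat shock genes, 4472 CPM, where the other XY libraries had 13128 and 21919 CPM and the XX libraries 11640 to 19960 CPM. Of the 15, the heat shock genes Hspa1a and Hspa1b were called higher in XX, and Hspa1a read 141, 293 and 19.2 CPM in XX against 14.8, 5.21 and 22.4 CPM in XY, with overlap. Neither was called with the replicate block (adjusted p = 0.204 for Hspa1a and 0.233 for Hspa1b, edgeR), or without XX replicate 1, XX replicate 2 or any 1 of the XY libraries. The part of this response in the results was not tested. Each mesenchyme marker was detected in every library (Vim, Col1a1, Col3a1, Dcn, Pdgfra, Pdgfrb, Twist1 and Thy1), and the 8 summed to 40389 to 46466 CPM in XX and 34201 to 41745 CPM in XY.

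Between the sexes, 4700 of 17257 autosomal genes (27.2%) passed an adjusted p of 0.05 in the quasi-likelihood test of edgeR. Of these, 2287 (13.3% of genes tested) were higher in XX and 2413 (14%) were higher in XY. Most differences were small: 2562 of the called genes differed by less than 1.5-fold, and the median log2 difference (XX minus XY) was 0.51 among genes higher in XX and -0.53 among genes higher in XY. At least 2-fold differences were found for 560 genes higher in XX (3.25%) and 650 higher in XY (3.77%). The far end leaned to XY: 29 genes were called with at least an 8-fold excess in XX and 74 with at least an 8-fold excess in XY. The CPM of the 3 XX and the 3 XY libraries did not overlap for 6573 genes (38.1%), including 4462 of the called genes. The median log2 difference over all autosomal genes tested was 0.007.

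**Figure D1:**
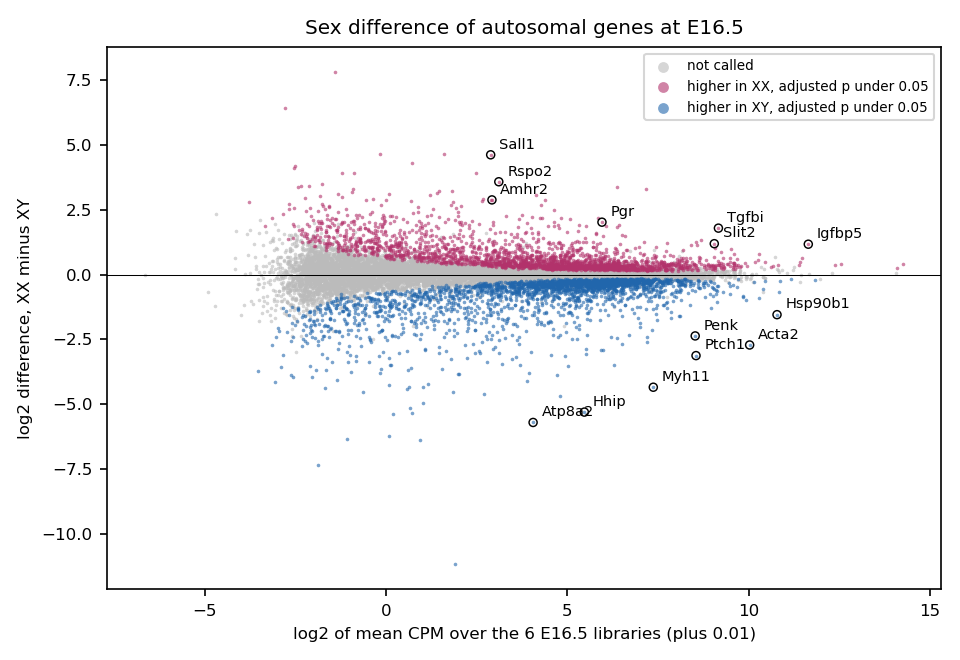
Log2 difference between XX and XY (y axis, XX minus XY) against the log2 of the mean CPM over the 6 E16.5 libraries (x axis), with 1 point for each of 17257 autosomal genes, coloured by the call at an adjusted p under 0.05. Sall1 at 4.62 and Rspo2 at 3.58 stand at the upper edge of the genes circled, and Atp8a2 at -5.71 and Hhip at -5.31 at the lower edge.

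Called genes lay on every autosome, with 22.9% (chromosome 7) to 31.7% (chromosome 10) of the genes tested. The balance of directions was less even. On chromosome 13, 49 genes were higher in XX and 127 in XY, so that XX took 27.8% of the calls, and on chromosome 16 it took 35.2%. XX took 55.9% of the calls on chromosome 7 and 55.8% on chromosome 11. These shares are descriptions of gene positions, and neighbouring genes are not independent.

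The genes that rose most in XX over XY included a kidney and urogenital transcription factor, a Wnt amplifier, the receptor of anti-Müllerian hormone and a group of membrane proteins best known from neurons. Sall1, a zinc-finger transcription factor of kidney development (mm10, chr8:89027235-89044162), measured 12.2, 17.7 and 12.9 CPM in XX libraries and 0.751, 0.24 and 0.679 CPM in XY. Every XX library was far above every XY library, with a log2 difference of 4.62 ± 0.287 (SE) and an adjusted p of 4.29e-08 in edgeR, a 24.6-fold excess. Rspo2, a secreted R-spondin that strengthens Wnt signalling (chr15:43020794-43170826), stood at 14.2, 14.9 and 18.5 CPM in XX and at 1.67, 1.28 and 1.07 CPM in XY. The groups did not overlap, and the excess was 12-fold. Amhr2, the type II receptor for anti-Müllerian hormone (chr15:102445367-102454633), read 11.2, 17.8 and 11 CPM in XX against 2.4, 1.47 and 1.6 CPM in XY. XX was 7.34-fold higher (adjusted p = 4.64e-07, edgeR), with XX replicate 2 the highest library.

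Membrane proteins filled much of the rest of that set. Dpp10, an accessory subunit of potassium channels on chromosome 1, was 8.27-fold higher at 29.3 to 34.1 CPM against 3.18 to 4.16 CPM. Epha6, an ephrin receptor on chromosome 16, was 6.37-fold higher, with 32.9 to 34.7 CPM in XX and 4.55 to 6.73 CPM in XY. The anion exchanger Slc26a7 (7.37-fold), the alpha-1D adrenergic receptor Adra1d (7.06-fold), the CUB and sushi domain protein Csmd3 (7.58-fold), the receptor-maturation inhibitor Shisa3 (5.63-fold) and the testican Spock3 (4.91-fold) were also in the set. A locus with a clone name only, RP24-235D23.7 on chromosome 8, was 7.34-fold higher. The genes of the set had XX libraries entirely above XY libraries, as the rule that named them required.

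The 12 genes that rose most in XY over XX included 3 smooth muscle contractile genes (Myh11, Actg2 and Cnn1) and the hedgehog target Hhip, and their excesses, 10.9-fold to 52.4-fold, were larger than the 4.91-fold to 24.6-fold of the XX set. Atp8a2, a phospholipid flippase (chr14:59638540-60197179), measured 0.416, 1.01 and 0.429 CPM in XX and 24, 38.1 and 35.7 CPM in XY. The excess in XY was 52.4-fold (log2 difference -5.71 ± 0.343 SE, adjusted p = 1.57e-07, edgeR), and the lowest XY library was XY replicate 1. Hhip, a membrane protein that binds and restrains hedgehog ligands (chr8:79965853-80058006), read 2.69, 1.87 and 1.95 CPM in XX against 65.7, 102 and 91 CPM in XY. That is a 39.7-fold excess with an adjusted p of 4.14e-10 in edgeR. Wfdc1, a secreted protein with a whey acidic protein domain on chromosome 8, was 25.7-fold higher at 42.4 to 61.3 CPM in XY against 1.95 to 2.25 CPM in XX. Lrrc55, an accessory subunit of BK potassium channels on chromosome 2, was 24.5-fold higher.

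The contractile genes of that set, Myh11, Actg2 and Cnn1, are taken up with the smooth muscle list. The remaining members had various roles. Adcy7, an adenylate cyclase on chromosome 8, read 118, 154 and 156 CPM in XY and 10.8, 11.9 and 15.2 CPM in XX. Artn, the neurotrophic factor artemin on chromosome 4, was uniform within each sex at 22.7 to 24.1 CPM in XY and 2.02 to 2.23 CPM in XX, an 11.2-fold excess. Fam46c, a poly(A) polymerase on chromosome 3, was 11.7-fold higher, Itgbl1, an integrin beta-like protein on chromosome 14, 10.9-fold, and the clone-named locus RP24-297H17.3 on chromosome 2, 13.8-fold.

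**Figure D2:**
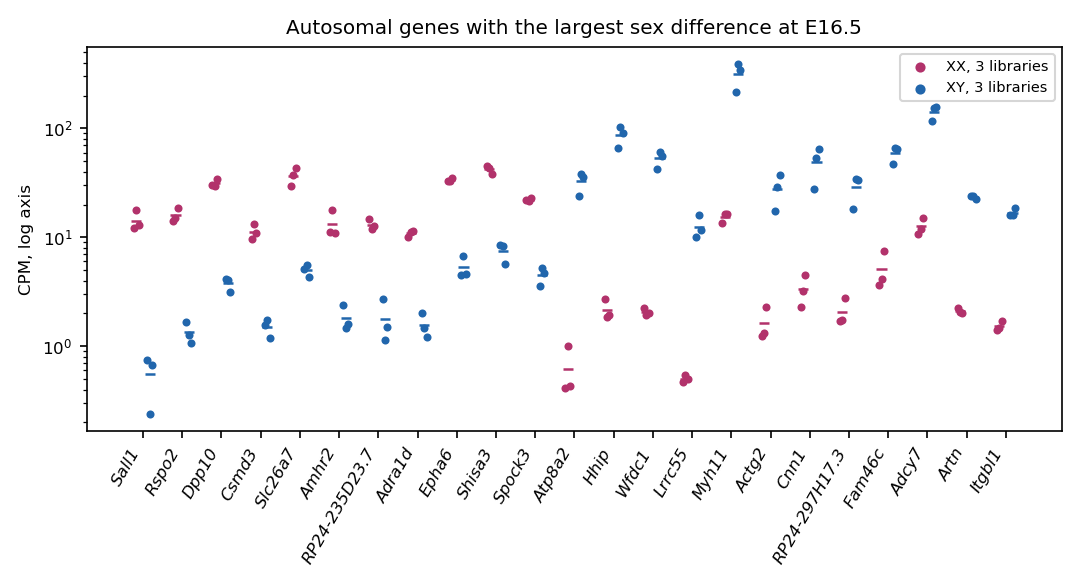
CPM (y axis, log scale) in each E16.5 library for 11 of the genes with the largest excess in XX (left) and the 12 with the largest excess in XY (right), with 1 point per library, 3 libraries per sex and a bar at the mean. No gene shown has an XX library among the XY libraries, since separation was part of the naming rule, and Atp8a2 is the widest at 0.618 CPM on average in XX and 32.6 CPM in XY.

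Among genes that differed at least 2-fold without overlap, those taking most counts had smaller folds. CPM is not scaled by gene length, so this order ranks counts. Igfbp5, a binding protein of insulin-like growth factors, led the XX side with 4519, 4766 and 3989 CPM in XX against 2252, 1921 and 1723 CPM in XY, a 2.25-fold excess (adjusted p = 1.7e-07, edgeR). Tgfbi, a matrix protein induced by TGF-beta, was 3.46-fold higher in XX at 832 to 960 CPM against 215 to 307 CPM. Next came the growth factor Igf1 (2.03-fold), the guidance ligand Slit2 (2.28-fold), the teneurin Tenm4 (2.55-fold) and the matrix protein Sned1 (2.17-fold).

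On the XY side, Hsp90b1, a chaperone of the endoplasmic reticulum, read 2349, 2668 and 2838 CPM in XY against 880, 851 and 961 CPM in XX, a 2.92-fold excess (adjusted p = 1.1e-09, edgeR). Penk, the precursor of the enkephalin peptides, varied little within a sex, with 590 to 642 CPM in XY and 118 to 120 CPM in XX, and was 5.18-fold higher in XY. Timp3, an inhibitor of metalloproteinases, was 2.44-fold higher in XY. It lies inside Syn3, which was also higher in XY at 18.4 to 26.6 CPM against 2.35 to 4.31 CPM. The others were Ptch1 and the contractile genes Acta2 and Tpm1. Of the 36 genes named by the 2 rankings, 19 overlap another row of the table. Overlap here means that the spans of the genes, introns included, share positions. The library kit did not mark strand, so reads from sequence shared by overlapping genes cannot be told apart by strand.

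Hedgehog response genes were lower in XX, while the genes that transmit the signal were near parity. Of 15 members tested, 6 were higher in XY, 2 were higher in XX and 7 were not called, against 14% and 13.3% of all autosomal genes, and the median log2 difference was -0.14. Ptch1, the receptor and a direct target of the pathway (chr13:63508328-63565735), measured 72.5, 68.6 and 88.7 CPM in XX and 423, 751 and 838 CPM in XY. XY was 8.76-fold higher (log2 difference -3.13 ± 0.234 SE, adjusted p = 4.5e-06, edgeR), with XY replicate 1 the lowest XY library and still above every XX library. Gli1 itself, the gene that drives the label, read 54, 49.7 and 48.5 CPM in XX against 194, 211 and 220 CPM in XY, a log2 difference of -2.04 (adjusted p = 3.53e-11, edgeR). In these bulk libraries, fewer cells expressing a gene and less RNA per cell cannot be told apart.

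Levels of the transducers gave no such gap. Smo, the signal-transducing membrane protein, was at 199 to 242 CPM in XX and 198 to 239 CPM in XY, and its log2 difference was 0.01 ± 0.0787 (SE). Gli2 and Gli3, the other Gli factors, had log2 differences of -0.05 each, with standard errors of 0.0663 and 0.0646. The ligand co-receptors split: Cdon was higher in XX (355 to 391 against 225 to 251 CPM), Boc was higher in XY (264 to 325 against 224 to 231 CPM), and Gas1 was not called (407 to 445 against 359 to 394 CPM; adjusted p = 0.101, and 0.0385 with the replicate block, edgeR). Sufu, an inhibitor of Gli factors, was higher in XX by 0.20 on the log2 scale, but without XX replicate 1 the adjusted p was 0.0704 and without XX replicate 2 it was 0.0831 (edgeR). Of the ligands, Shh (at most 0.0801 CPM) and Dhh (at most 0.113 CPM) were too low to be tested, and Ihh was low in both sexes (0.197 to 0.379 CPM in XX and 0.107 to 0.469 CPM in XY) and not called.

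Smooth muscle contractile genes moved in 1 direction. Of 20 members tested, 15 were higher in XY, none was higher in XX and 5 were not called (Des, Ldb3, Srf, Hspb1 and Synm), with a median log2 difference of -0.90. Of all autosomal genes tested, 14% were higher in XY and 13.3% were higher in XX. Myh11, the smooth muscle myosin heavy chain (chr16:14194535-14291372), measured 15.5 ± 1.76 CPM in XX (SD, n = 3) and 215, 386 and 342 CPM in XY, a 20.3-fold excess (adjusted p = 1.69e-06, edgeR). Acta2, smooth muscle alpha-actin, rose from 241, 245 and 339 CPM in XX to 1245, 1935 and 2245 CPM in XY. The gamma-actin Actg2 read 1.25, 1.31 and 2.3 CPM in XX against 17.3, 28.7 and 37.1 CPM in XY. XY replicate 1 was the lowest XY library for all of these genes and remained above every XX library.

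Calponin (Cnn1) was 14.6-fold higher in XY, with 27.8 to 65 CPM against 2.28 to 4.55 CPM, and Lmod1, an actin nucleator of muscle, read 7.82 to 13 CPM against 1.19 to 1.55 CPM. Myocd, the coactivator that switches on contractile genes with Srf, measured 21.4, 22.8 and 21 CPM in XX and 54.5, 84.4 and 76.6 CPM in XY, a log2 difference of -1.73 ± 0.157 (SE). Its partner Srf varied as much within as between the sexes, at 234 to 388 CPM in XX and 155 to 442 CPM in XY, and Des, the muscle intermediate filament desmin, was at 201 to 209 CPM in XX and 189 to 203 CPM in XY. The list held a set of modest members too: Mylk, the myosin light chain kinase, differed by -0.75, Tpm2 by -0.84 and caldesmon (Cald1) by -0.50 on the log2 scale. Synpo2 passed in the full fit at -0.34, but left the threshold under 7 of 14 other settings. Summed over the list, levels were 2309, 2363 and 2692 CPM in XX and 4486, 6230 and 6795 CPM in XY. Tagln, Des, Mylk, Lmod1, Smtn, Synpo2, Cald1, Srf and Synm overlap other rows.

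Since these genes moved together, their promoters were searched for the CArG box, the palindromic element bound by Srf, over the 250 bases before the start site on both strands. Of 20 list members, 16 matched the RefSeq promoter table (GRCm38.p6, the assembly called mm10), with 19 promoters. Myh11, Actg2, Tagln and Myocd had no entry in it and were not searched. Of the 19 promoters, 4 held a match, those of Myl9, Srf and Ldb3. For comparison, 1.15% of 13509 promoters of tested autosomal genes held one, and 1.66% of those of genes higher in XY. The core of the Gli binding site, GACCACCC, was searched in the same way and was in 0 of the 10 promoters of hedgehog list members, 0 of the 19 smooth muscle promoters and 0.799% of the 13509, on either strand. The promoter of Gli1 was not among those 10. A match is a stretch of letters and not a measured site. Of the 3 genes, Myl9 was called and Srf and Ldb3 were not. Myl9, the regulatory light chain of smooth muscle myosin, measured 130, 132 and 146 CPM in XX and 343, 441 and 442 CPM in XY, a log2 difference of -1.59 (adjusted p = 1.18e-08, edgeR). Its promoter is shown because it joins a called gene with a match. The stretch is the plus strand of chr2:156775214-156775413, which ends 50 bases before the RefSeq start site, and the capitals mark the CArG box, whose first base is at -161. In the unified ATAC-seq peak list, 1 peak overlaps the stretch, as a peak does 76.4% of the 13509 promoters.
Myl9: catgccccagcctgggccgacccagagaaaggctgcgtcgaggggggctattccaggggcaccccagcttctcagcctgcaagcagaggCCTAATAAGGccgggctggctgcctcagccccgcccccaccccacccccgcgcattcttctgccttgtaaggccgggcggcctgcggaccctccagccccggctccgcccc

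**Figure D3:**
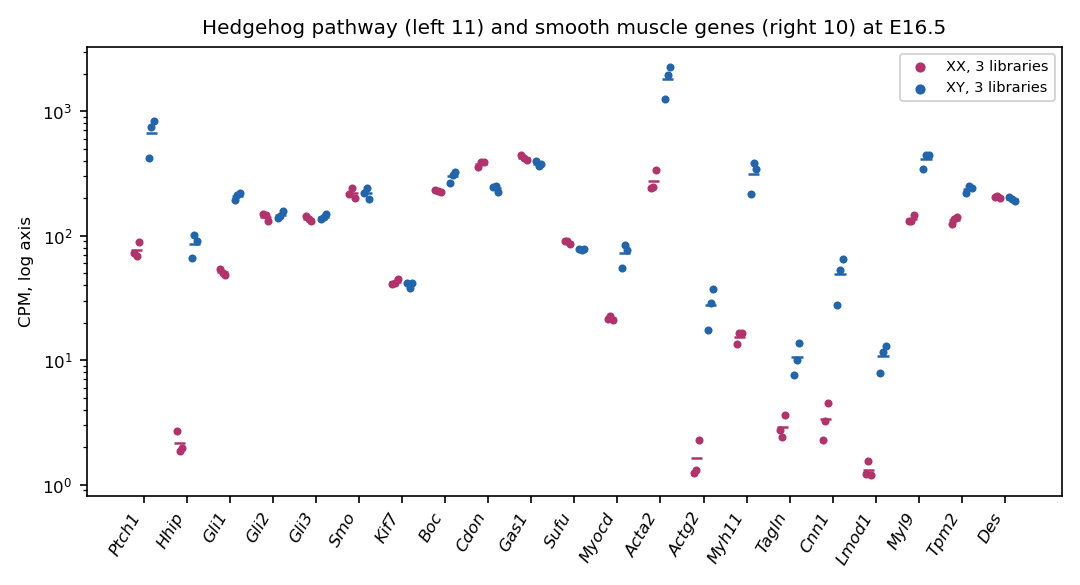
CPM (y axis, log scale) in each E16.5 library for 11 hedgehog pathway genes (left) and 10 smooth muscle genes (right), with 1 point per library, 3 libraries per sex and a bar at the mean. The responses Ptch1, Hhip and Gli1 separate by sex while Gli2, Gli3, Smo and Kif7 coincide, and Des is the contractile-list gene shown whose groups overlap.

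The estrogen receptor Esr1 and the progesterone receptor Pgr were higher in XX, whereas the other steroid receptors tested were not. Esr1, estrogen receptor alpha, measured 195, 199 and 193 CPM in XX and 80.4, 82 and 83.3 CPM in XY, with a log2 difference of 1.26 ± 0.0516 (SE) and an adjusted p of 1.35e-10 in edgeR. Pgr, the progesterone receptor, read 99.7, 98.8 and 99.6 CPM in XX against 29, 22.6 and 21.7 CPM in XY, a log2 difference of 2.02. Both were uniform among the XX libraries. Hsd11b2, which inactivates glucocorticoid, was also higher in XX, at 41.4 to 48.1 CPM against 21.5 to 30.3 CPM.

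Of the 11 members of that steroid list that were tested, 3 were higher in XX, 5 were higher in XY and 3 were not called, with a median log2 difference of -0.04 and 72.7% called against 27.2% of all autosomal genes. The number higher in XY was 3 without XX replicate 1, XX replicate 3, XY replicate 2 or XY replicate 3, when Greb1, an estrogen-responsive gene, and Nr3c1 missed the threshold. Of the other steroid receptors, Esr2 (-0.04) and Nr3c2 (0.02) were not called. The widest on the XY side was Hsd11b1, which regenerates active glucocorticoid, but it was close to the floor at 0.404 to 0.557 CPM in XY and 0.0245 to 0.0505 CPM in XX. Fkbp5, a co-chaperone of steroid receptors that glucocorticoid and androgen induce, read 132, 138 and 139 CPM against 45.4, 46 and 42.9 CPM in XX (log2 difference -1.61, adjusted p = 9.01e-11, edgeR). Srd5a3 was higher in XY with a log2 difference of -0.45, and Srd5a1, a 5-alpha reductase, was not called at 9.68 to 9.88 CPM in XX and 8.49 to 10.9 CPM in XY. Srd5a2 was too low to be tested, at most 0.145 CPM. The glucocorticoid receptor Nr3c1 passed narrowly at -0.24, with an adjusted p of 0.0468 in edgeR, and reached 0.161 without XY replicate 3.

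The receptor Amhr2 stood apart from the machinery that it shares with BMP receptors. Of 16 members of the list of AMH and BMP receptors, Smads and targets, 3 were higher in XX (Amhr2, Smad5 and Sp7), 1 was higher in XY (Bmpr2) and 12 were not called. That share, 25%, is near the 27.2% of all autosomal genes. Bmpr2 missed the threshold in the fit of the 6 E16.5 libraries and without any 1 of them other than XY replicate 1. Bmpr1a, a type I receptor, was at 226 to 245 CPM in XX and 237 to 261 CPM in XY, and Smad4 at 111 to 120 and 112 to 122 CPM. The target gene Id1 overlapped between the sexes with a wide spread, 56.5 to 106 CPM in XX and 32.6 to 111 CPM in XY. Sp7, a transcription factor that AMH signalling induces in Müllerian mesenchyme of males, was low and higher in XX, at 3.79 to 4.82 CPM against 2.21 to 2.46 CPM.

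Wnt ligands changed in both directions, and 14 of 17 tested ligands and R-spondins were called, 6 higher in XX and 8 higher in XY. That is 82.4% called against 27.2% of all autosomal genes. Some called members were close to the floor, and over the other settings the counts were as low as 4 in XX and 7 in XY. Wnt4, which is required for Müllerian duct formation, read 101, 107 and 113 CPM in XX against 67.9, 54.7 and 51.1 CPM in XY (log2 difference 0.89). Wnt11 was higher in XX at 32.6 to 42.5 CPM against 13.9 to 19.6 CPM, and so was Rspo1, at 73.9 to 88 CPM against 36.6 to 51.8 CPM. Wnt5a, the most counted ligand, went the other way with 500, 500 and 445 CPM in XX and 659, 886 and 769 CPM in XY (log2 difference -0.68, adjusted p = 2.64e-05, edgeR). Rspo3 was higher in XY at 139 to 154 CPM against 80.8 to 88.4 CPM, opposite to Rspo1 and Rspo2. Wnt7a, a ligand of Müllerian epithelium, had 21, 20 and 47 counts in XX libraries and 0 in each XY library, at least 34.3-fold higher against a floor of 3 counts over the XY group.

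Secreted Wnt antagonists split as well, with 4 of 11 tested higher in XX and 2 higher in XY, 54.5% called against 27.2% of all autosomal genes. The number higher in XY was 4 without XX replicate 2 and with the replicate block. Sfrp4 measured 21.9, 24.8 and 26.7 CPM in XX and 9.66, 5.55 and 6.2 CPM in XY, a log2 difference of 1.78. Frzb (1.46), Sfrp2 (1.04) and Dkk2 (0.69 on the log2 scale) followed. Sfrp1 was higher in XY, at 575 to 732 CPM against 394 to 523 CPM, and so was Sostdc1, a BMP and Wnt inhibitor, at 7.93 to 11.9 CPM against 5.04 to 6.3 CPM. Among 15 genes that respond to or shape canonical Wnt signalling, 3 were higher in XX (Lef1, Tcf7l1 and Apcdd1), 2 were higher in XY (Nkd2 and Lgr4) and 10 were not called. That is 33.3% called against 27.2% of all autosomal genes, and with the replicate block 5 were higher in XX. Axin2, the usual readout, was at 85.3 to 97.7 CPM in XX and 64.2 to 85.1 CPM in XY, with a log2 difference of 0.24 ± 0.105 (SE) and an adjusted p of 0.109 in edgeR. With the replicate number as a block it passed, at an adjusted p of 0.0189 in edgeR.

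BMP and activin ligands and their antagonists were mostly higher in XY, 12 of 19 tested against 3 higher in XX, with a median log2 difference of -0.56. Of all autosomal genes tested, 14% were higher in XY and 13.3% in XX. Over the settings tried, 10 to 13 members were higher in XY and 2 to 4 in XX. Bmp4 measured 12, 13.5 and 9.65 CPM in XX and 56.7, 76.8 and 61.5 CPM in XY, a log2 difference of -2.47 ± 0.151 (SE, adjusted p = 4.93e-08, edgeR). Inhba, the beta-A subunit of activin and inhibin, which drives coiling of the epididymal duct, read 91.4, 82.9 and 64.7 CPM in XX against 227, 319 and 269 CPM in XY. Bmp2, Bmp3 and Bmp6 were also higher in XY. Bmp7 and Bmp5 went the other way, Bmp7 at 13.9 to 18.7 CPM in XX against 7.14 to 8.33 CPM in XY and Bmp5 at 21.8 to 26.3 against 11.7 to 13.8 CPM. The antagonist Chrd was higher in XY, at 104 to 109 CPM against 73.3 to 76.1 CPM.

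Of 18 FGF ligands, receptors and responses, 9 were higher in XY, 2 were higher in XX and 7 were not called, against 14% and 13.3% of all autosomal genes. The number higher in XX was 1 without XX replicate 2, XX replicate 3 or XY replicate 2. The ligand Fgf1 read 2.96 to 4.95 CPM in XX and 11.3 to 13.9 CPM in XY, and Fgf9 0.612 to 0.862 against 2.42 to 2.62 CPM. Fgf10, the mesenchymal ligand of branching epithelia, was higher by a smaller margin, at 32.6, 33.2 and 34.7 CPM in XX and 37.6, 51.7 and 49.3 CPM in XY. The receptor Fgfr2 was at 101 to 108 CPM in XX and 144 to 186 CPM in XY. Of the Ets factors that respond to FGF, Etv1 was higher in XY (-1.84), Etv4 was higher in XX (1.47), and Etv5 was not called (-0.16 on the log2 scale).

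Growth factor axes were divided within themselves. Of 20 IGF, HGF, PDGF and EGF genes, 7 were higher in XX, 7 were higher in XY and 6 were not called, with a median log2 difference of 0.10. The share called was 70%, against 27.2% of all autosomal genes. Among IGF binding proteins, Igfbp5 and Igfbp4 were higher in XX, whereas Igfbp7 (58.1 to 59.4 CPM in XX, 180 to 194 CPM in XY), Igfbp6 (7.68 to 8.77 against 27.5 to 34.3 CPM) and Igfbp2 (169 to 192 against 288 to 354 CPM) were higher in XY. The PDGF receptors parted: Pdgfra, the alpha receptor, measured 659, 668 and 611 CPM in XX and 1050, 1289 and 1185 CPM in XY (log2 difference -0.86). Pdgfrb, the beta receptor, measured 496, 523 and 465 CPM in XX and 317, 335 and 305 CPM in XY (0.63). Hgf, the scatter factor, was higher in XX, at 14.9 to 15.8 CPM against 6.9 to 9.91 CPM.

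In the retinoid list, 4 of 15 members were higher in XX, 3 were higher in XY and 8 were not called, so that 46.7% were called against 27.2% of all autosomal genes. Crabp1, a cytoplasmic retinoic acid binding protein, was the widest, at 118, 131 and 140 CPM in XX and 38.3, 35.7 and 34.4 CPM in XY (log2 difference 1.84, adjusted p = 1.06e-10, edgeR). The receptors Rarb and Rarg were higher in XX by 0.68 and 0.49 on the log2 scale. Aldh1a2, an enzyme of retinoic acid synthesis, was not called at 459 to 493 CPM in XX and 489 to 565 CPM in XY, and passed without XY replicate 1 (adjusted p = 0.0375, edgeR).

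Transcription factors of the urogenital ridge changed in both directions, with 8 of 27 tested higher in XX, 6 higher in XY and 13 not called, and 51.9% called against 27.2% of all autosomal genes. After Sall1, those higher in XX included Hand2 (11.3 to 14.8 against 5.26 to 7.02 CPM), Emx2 (35.5 to 49.7 against 21 to 27.7 CPM) and Wt1 (164 to 182 against 94.6 to 112 CPM). Those higher in XY included Tcf21, a mesenchymal bHLH factor, which read 141, 136 and 92.4 CPM in XX and 282, 287 and 264 CPM in XY. Nr2f2 (COUP-TFII) was higher in XY by a small margin, 463 to 504 CPM against 334 to 426 CPM, and Osr1, Osr2, Tbx3 and Nr2f1 were not called. Gata4 was close to the floor in XX, at 0.177 to 0.245 CPM, and 0.801 to 1.91 CPM in XY.

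Posterior Hox genes, which set position along the tract, split evenly with 4 of 15 higher in each sex. Together 53.3% were called, against 27.2% of all autosomal genes. Hoxc8 was higher in XY (40.2 to 50.5 CPM in XX, 97.3 to 122 CPM in XY), as were Hoxd8, Hoxc9 and Hoxd13. Hoxb9 was higher in XX, at 8.5 to 11.5 CPM against 3.49 to 4.24 CPM, followed by Hoxd10 and Hoxd9. Hoxa10, a patterning gene of the uterus, measured 150, 158 and 144 CPM in XX and 137, 107 and 125 CPM in XY. Its log2 difference of 0.29 passed at an adjusted p of 0.0467 in edgeR and missed under 9 of 14 other settings. Hoxa9 and Hoxa11 overlapped between the sexes, and Hoxa11 passed without XY replicate 1 (adjusted p = 0.0191, edgeR). Without XX replicate 2, XY replicate 2 or XY replicate 3, the number higher in XX was 2.

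Collagens of the list were abundant and mostly changed by small amounts. Of 22 tested, 12 were higher in XY and 7 were higher in XX, with log2 differences from -1.38 to 1.13. That is 86.4% called against 27.2% of all autosomal genes. Fibrillar Col1a1 read 23998, 23689 and 19610 CPM in XX and 18632, 17512 and 14274 CPM in XY, a log2 difference of 0.42 (adjusted p = 0.00678, edgeR), and Col3a1 was not called. The basement membrane chains Col4a1 and Col4a2 were higher in XY, Col4a1 at 1567 to 1733 CPM against 807 to 891 CPM and Col4a2 at 877 to 913 CPM against 502 to 555 CPM. Col4a3 and Col4a4, which the list did not hold, differed more, by -1.81 and -3.16 on the log2 scale. Col12a1, a collagen of dense connective tissue, was at 1181 to 1396 CPM in XY and 577 to 703 CPM in XX. The count higher in XX was 4 without XX replicate 2 or without XY replicate 3.

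Of 31 proteoglycans, elastic fibre and matricellular genes, 13 were higher in XY, 6 were higher in XX and 12 were not called. The share called was 61.3%, against 27.2% of all autosomal genes. Aspn, the leucine-rich proteoglycan asporin, measured 16, 13.5 and 13.2 CPM in XX and 96.4, 106 and 117 CPM in XY (log2 difference -2.90). Smoc1, a calcium-binding matricellular protein that modulates BMP signalling, read 11.3, 17.6 and 16.8 CPM in XX against 78.7, 81.1 and 72.3 CPM in XY (-2.34), and Ltbp2, a latent TGF-beta binding protein relative, 8.67 to 10 CPM against 36.5 to 42.6 CPM. Spon2 was the widest of the XX side at 45.4 to 50.9 CPM against 21.6 to 25.3 CPM. Lum, the proteoglycan lumican, was higher in XX at 1400 to 1568 CPM against 847 to 1197 CPM, in contrast to its relative Ogn, which was at 79.7 to 105 CPM in XX and 234 to 289 CPM in XY. The elastic fibre genes Eln, Fbn1, Fbn2 and Mfap4 were not called.

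Nov (CCN3) was the widest of the CCN and protease list, at 4.75, 4.7 and 5.38 CPM in XX and 0.508, 0.534 and 0.533 CPM in XY, a log2 difference of 3.23 (adjusted p = 1.36e-08, edgeR). Its relative Ctgf was higher in XY, at 24.7 to 34.2 CPM against 9.75 to 17.3 CPM. Cyr61 was not called, except without XY replicate 1 (adjusted p = 0.00625, edgeR), and spread from 432 CPM in XY replicate 1 to 2667 CPM in XY replicate 3. In all, 6 of 21 members were higher in XX and 7 in XY, 61.9% called against 27.2% of all autosomal genes.

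Guidance and adhesion molecules leaned to XX, where 12 of 23 tested were higher, against 6 higher in XY, with a median log2 difference of 0.39. Of all autosomal genes tested, 13.3% were higher in XX and 14% in XY. Besides Slit2, the ephrin receptor Epha7 read 68.2, 71.9 and 71.8 CPM in XX against 29.3, 39.1 and 31.7 CPM in XY. Efnb2, an ephrin ligand, was at 121 to 140 CPM in XX and 65.5 to 71.8 CPM in XY, and N-cadherin (Cdh2) at 47 to 52.9 against 27 to 27.4 CPM. The XY side included Sema3c (54.6 to 67.3 CPM in XX, 98.7 to 155 CPM in XY), netrin (Ntn1, 73.7 to 82.2 against 135 to 153 CPM) and cadherin 11 (Cdh11). The Slit receptors Robo1 and Robo2 were not called.

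Among chemokines and inflammatory genes, 7 of 18 were higher in XX, 3 were higher in XY and 8 were not called. That is 55.6% called against 27.2% of all autosomal genes. Vcam1, an adhesion molecule, measured 39.2, 39.1 and 39.2 CPM in XX and 12, 10 and 10.4 CPM in XY. The alarmin Il33 went the other way, at 24.9 to 30.7 CPM in XX and 82.9 to 106 CPM in XY. Notch genes split evenly with 4 of 15 higher in each sex, and the counts were as low as 2 and 1 when a single library was left out. In the full fit 53.3% of the Notch genes were called. The receptor Notch1 was at 105 to 108 CPM in XX against 50.9 to 64.8 CPM in XY. The target Hes1 was not called and ranged from 37.9 to 236 CPM within XY.

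Proliferation genes were slightly and broadly higher in XY. Of 20 mitosis genes, 17 were higher in XY and none was higher in XX, and all 20 had negative log2 differences, from -0.59 to -0.26. That is 85% called against 27.2% of all autosomal genes. Mki67, the proliferation antigen, read 405, 402 and 451 CPM in XX against 485, 611 and 723 CPM in XY (log2 difference -0.53, adjusted p = 0.00233, edgeR). The count fell to 8 without XX replicate 1, 7 without XX replicate 2 and 9 without XY replicate 3, and was 10 in a fit to the 6 E16.5 libraries. Of 20 DNA replication genes, 15 were higher in XY and none was higher in XX, so that 75% were called. The cyclin Ccne2 had the widest difference, at 14.2 to 19.8 CPM in XX and 25.3 to 38.7 CPM in XY. Within XY, replicate 3 was the highest library for both Mki67 and Ccne2. Cyclins Ccnd1 and Ccnd2 were higher in XY, by -0.52 and -0.50 (XX minus XY), and the inhibitor Cdkn1c was higher in XX by 0.27. Of 12 members tested in that list of D cyclins and inhibitors, 3 were higher in XX and 5 in XY, or 66.7% called.

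More genes of fetal growth were called higher in XX than in XY. Of 16 oncofetal and imprinted genes, 6 were higher in XX, 2 were higher in XY and 8 were not called. The share called was 50%, against 27.2% of all autosomal genes. Over the settings tried, 5 to 7 were higher in XX and 2 to 3 in XY. Hmga2, a chromatin protein of undifferentiated mesenchyme, measured 116, 111 and 92.2 CPM in XX and 68.2, 43.7 and 43.5 CPM in XY. Lin28b was low and higher in XX, at 3.18 to 3.55 CPM against 1.28 to 1.57 CPM. H19, an imprinted noncoding RNA, was at 5855 to 6255 CPM in XX and 4377 to 4814 CPM in XY, and Igf2, its neighbour, at 234 to 316 against 198 to 215 CPM.

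Metabolic lists diverged from each other. Of 17 cholesterol synthesis genes, 13 were higher in XY, none was higher in XX and 4 were not called, with a median log2 difference of -0.73. The share called was 76.5%, against 27.2% of all autosomal genes. Msmo1, a sterol methyl oxidase of the pathway, read 26.8 to 35.5 CPM in XX and 61.6 to 73.8 CPM in XY. Of 20 glycolysis and hypoxia genes, 1 was higher in XX (Vegfa), 3 were higher in XY and 16 were not called, a share of 20% called against 27.2% of all autosomal genes. With the replicate block, 2 were higher in XX and 6 in XY, and Vegfa was not called without XX replicate 2 (adjusted p = 0.103, edgeR) or without XY replicate 3 (0.0663). Gapdh was at 225 to 246 CPM in XX and 224 to 244 CPM in XY.

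**Figure D4:**
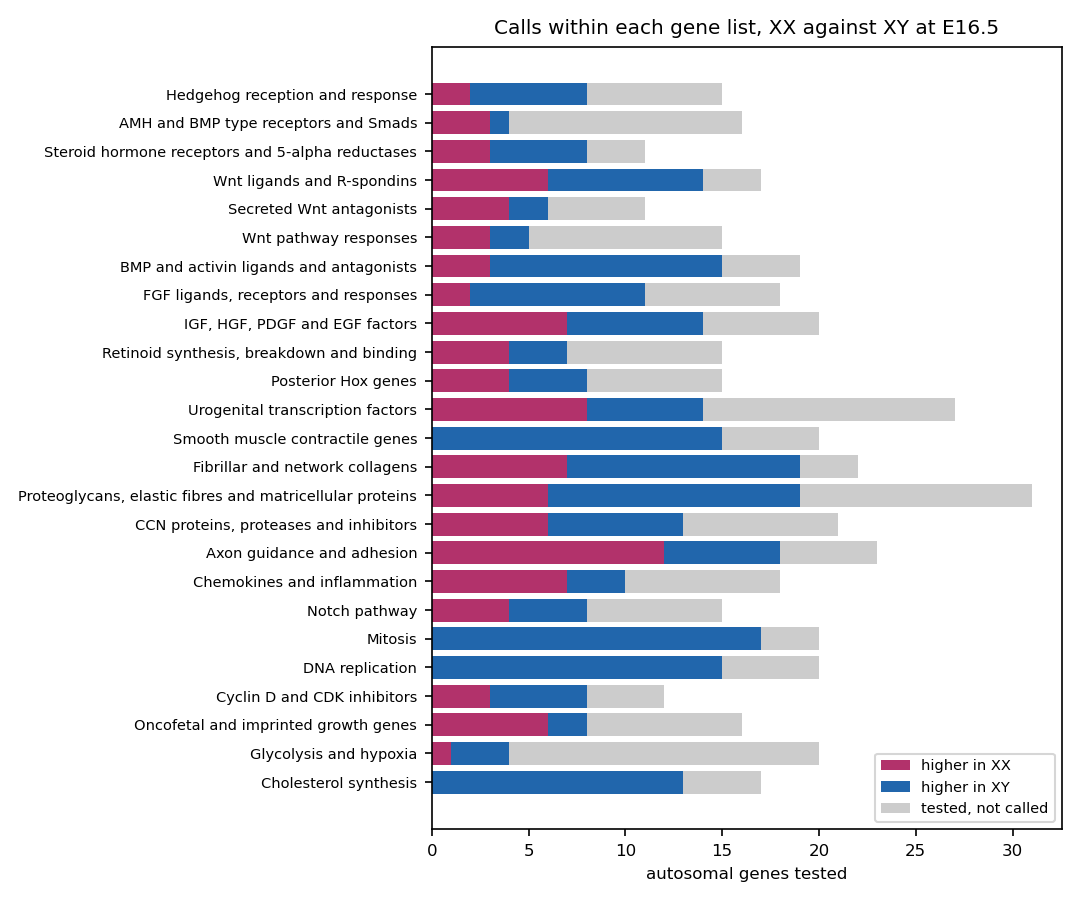
Number of tested autosomal genes (x axis) in each of 25 gene lists (y axis) that were higher in XX, higher in XY or not called at an adjusted p under 0.05 in edgeR. Smooth muscle, mitosis, DNA replication and cholesterol synthesis have no member called higher in XX, and axon guidance has the longest XX segment at 12 genes.

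Some of the most sexually divergent genes lay below the level of 10 CPM that the naming rule asked for, and are named here after their values were seen. Sult1e1, the estrogen sulfotransferase (chr5:87575969-87591594), had no count in any XX library and 302, 243 and 535 counts in XY libraries, or 7.48 ± 1.09 CPM (SD, n = 3). It was at least 302-fold higher in XY against a floor of 3 counts over the XX group. Tfap2c, a transcription factor on chromosome 2, read 2.67, 3.89 and 2.83 CPM in XX and 0.169, 0.0534 and 0.21 CPM in XY. Ren1, renin, was at 3.47 to 5.25 CPM in XY and 0.196 to 0.271 CPM in XX.

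Markers of other cells were mostly low. Beside their calls, 13.3% of all autosomal genes tested were higher in XX and 14% were higher in XY. Of 13 epithelial markers, 1 was higher in XX (Emx2) and 1 in XY (Krt18); the list summed to 62.5 to 83.6 CPM in XX and 56.6 to 69.4 CPM in XY, with Emx2 its largest member, and Cdh1 was at most 0.549 CPM. Immune markers were higher in XX for 6 of 8 genes, and summed to 32.1 to 82.4 CPM in XX and 14.1 to 48.3 CPM in XY; the macrophage receptor Csf1r read 5, 7.22 and 10.9 CPM against 2.25, 1.31 and 2.46 CPM. Markers of gonadal supporting cells and coelomic epithelium were higher in XY for 6 of 8 tested, at 51.6 to 72.1 CPM in XX and 93.7 to 102 CPM in XY in sum, and the count was 2 without XX replicate 1 and in the fit of the 6 E16.5 libraries. Foxl2 was its largest member (30.2 to 36.5 against 50.9 to 53.9 CPM), and Amh was not called.

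Endothelial markers summed to 69.9 to 82.9 CPM in XX and 85.7 to 94.9 CPM in XY, with Cdh5 and Kdr higher in XY and Emcn higher in XX. Nephron and metanephric stroma markers summed to 322 to 340 CPM in XX and 210 to 233 CPM in XY, of which Itga8 gave 308 to 327 and 199 to 224 CPM, while Six2 was at most 0.0739 CPM. Of 5 tested in that list, 2 were higher in XX and 1 was higher in XY. Pericyte markers overlapped in sum, at 460 to 517 CPM in XX and 455 to 538 CPM in XY. Among 5 pericyte markers tested, 1 was higher in XX and 2 were higher in XY. Steroidogenic (6.42 to 9.9 and 7.55 to 11.9 CPM), neural and glial (15.6 to 28.1 and 13.4 to 23.1 CPM) and skeletal muscle and cartilage markers (7.93 to 9.62 and 8.16 to 11.8 CPM) were low in both sexes. Of 3 steroidogenic markers tested, 1 was higher in XY. Neural, skeletal and cartilage lists had no called member, and Pax7 and Matn1 had no count. Germ cell markers summed to 0.783 to 1.3 CPM in XX and 1.92 to 2.54 CPM in XY, with Dppa3 and Stra8 at 0 counts. Of 3 germ cell markers tested, 2 were higher in XY. That number was 1 without XX replicate 2, XX replicate 3 or XY replicate 2. Erythroid markers had no called member in the fit of 12 libraries and 4 higher in XX in the fit of the 6 E16.5 libraries, with sums of 28.2 to 53.1 CPM in XX and 13.9 to 18.4 CPM in XY. The part of these cells in the results above was not tested.

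At E14.5, 1074 autosomal genes were called between the sexes, against 4700 at E16.5. Total counts ran from 23382983 to 54189569 over the E14.5 libraries, against 38433747 to 64602477 at E16.5. The part of depth in the 2 counts of calls was not tested. A sex by age interaction, the difference between the E16.5 and E14.5 log2 sex differences, was called for 1715 of 17257 autosomal genes (9.94%), 800 toward XX and 915 toward XY. Without E16.5 XY replicate 1 the number was 2578. Of the 2287 genes higher in XX at E16.5, 290 were also called higher in XX at E14.5 and 50 were called higher in XY; of the 2413 higher in XY, 389 were also called higher in XY and 33 were called higher in XX. Traces of the opposite sex were measured in E14.5 replicate 3 (Xist at 16.2 CPM in the XY library and Ddx3y at 2.17 CPM in the XX library). Leaving out that XY library gave 1319 interaction calls, and leaving out that XX library gave 1333.

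Of the 36 named genes, 23 were called at E14.5 and 33 had a called interaction. Over all 17257 autosomal genes tested, 1074 were called at E14.5 and 1715 had a called interaction. The 36 were chosen by a wide difference at E16.5, which favours a called interaction, so their share tests nothing. Hhip read 37.2 CPM on average in XX and 62.5 CPM in XY at E14.5, against 2.17 and 86.3 CPM at E16.5, so that the mean of XX differed more between the ages than the mean of XY. Ptch1 likewise averaged 616 and 855 CPM at E14.5, against 76.6 and 671 CPM at E16.5. Rspo2 averaged 0.444 CPM in XX and 0.874 CPM in XY at E14.5. Slc26a7 was called in the opposite direction at the younger age, at 2.38 CPM in XX and 7.31 CPM in XY. Amhr2 was already 30.6 CPM in XX and 8.47 CPM in XY at E14.5, and was lower in both sexes at E16.5. The contractile genes Acta2 and Cnn1 were higher in XY at both ages, and their interactions were not called (adjusted p = 0.125 and 0.087, edgeR).

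**Figure D5:**
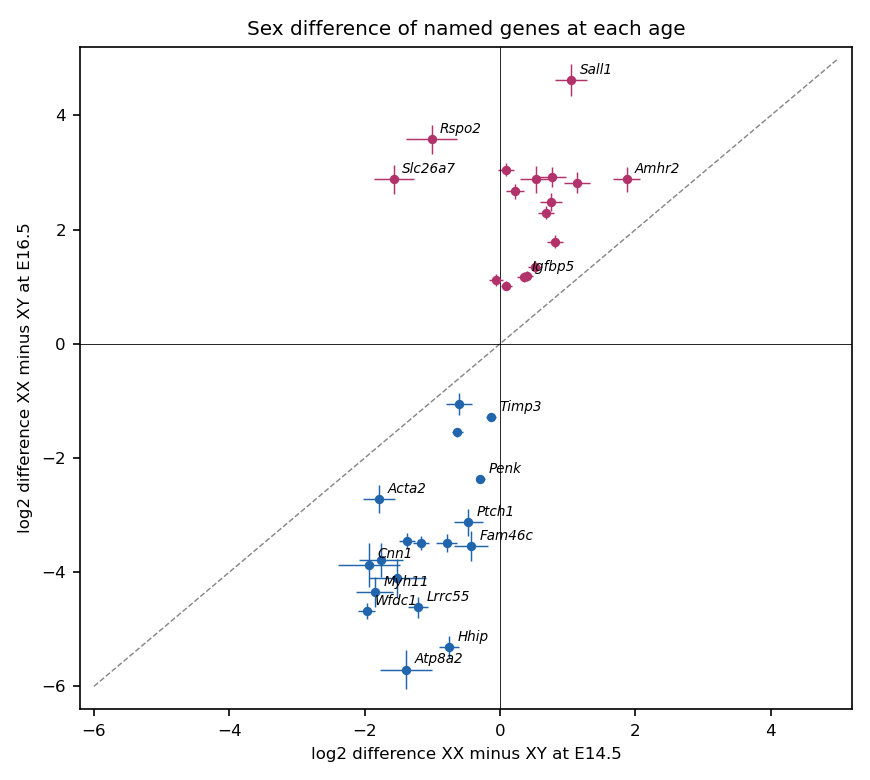
Log2 sex difference (XX minus XY) at E14.5 (x axis) and E16.5 (y axis) for 35 named genes, with bars for 1 SE and the dashed line of equal difference. All 35 points lie farther from 0 on the y axis than on the x axis. The genes were chosen by their difference at E16.5, and that choice favours this outcome. Of the genes higher in XX at E16.5, 3 lie left of 0 at E14.5: Slc26a7 (-1.57), Rspo2 (-1.01) and Sned1 (-0.06).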

How the data were processed

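RNA was sequenced from sorted Gli1+ mesenchyme, and the authors deposited whole-number read counts per gene, 1 column per library, with no normalization. STAR 2.5, featureCounts, Subread 1.5.0-p1 and the mm10 build are named, without roles, per the submitters' processing notes. The kit of the fetal libraries did not mark strand, per the labels' protocols, and the strand setting of the counting is not given in the sources used here. The deposited unified ATAC-seq peak list (other values: peak starts and ends, without scores) was used only to see whether promoters overlap a peak.

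The counts were fitted with edgeR 4.0.16 (R 4.3.3, limma 3.58.1): filterByExpr by group, TMM factors, and the robust quasi-likelihood test on 4 group means over 12 fetal libraries, which share 1 estimate of spread. P-values were adjusted by Benjamini-Hochberg over all genes tested, sex chromosomes included, and called at 0.05. Log2 differences are XX minus XY. The procedure was tested on simulated counts.

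Genes were named by rule: the 12 with the largest log2 difference in each direction among those called, whose higher sex averaged 10 CPM or more and whose sexes did not overlap, the 6 with most counts in each direction among those at least 2-fold different without overlap, and members of the gene lists, giving those with the widest difference and the best known. Of these genes, 1 of the 12 highest in XX and some list members are not reported here, though they enter the counts. The members and lists were chosen with earlier results of these data known. Alternatives were library-size and DESeq2 1.42.0 scaling and testing, other low-count filters, a replicate block, a fit of the 6 E16.5 libraries, and each library left out. The fit of the 6 libraries with the block was added after seeing the data. As a check of pairing, deviations of same-numbered XX and XY libraries correlated at 0.29, 0.12 and 0.4, all above 0.1. Pairs of different number ran from -0.34 to 0.11, the highest being XX replicate 2 with XY replicate 1. The replicate numbers come from the labels, which do not say what they mark. Depth ran from 38433747 to 64602477 counts, and floors of 3 counts cover counting error only.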

Additional observations from a re-analysis of the deposited data

Results flagged for a closer look

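The sex difference at E16.5 differed from that at E14.5 by the test of the interaction itself for 1715 autosomal genes. Among them were 33 of the 36 genes named by rule, but these were chosen by their difference at E16.5, which favours a called interaction. The values that follow are the log2 sex difference at E16.5 minus that at E14.5, where a positive value is a shift toward XX. Among the genes with the widest excess in XX, the shift was 4.59 for Rspo2, 4.46 for Slc26a7, 3.58 for Sall1, 2.96 for Dpp10 and 2.46 for Epha6. It was 2.35 for RP24-235D23.7, 2.16 for Csmd3, 1.74 for Shisa3, 1.68 for Adra1d, 1.62 for Spock3 and 1.01 for Amhr2. Among the genes with the widest excess in XY, the shift was -4.56 for Hhip, -4.32 for Atp8a2, -3.41 for Lrrc55, -3.11 for Fam46c, -2.72 for Wfdc1 and -2.70 for Artn. It was -2.59 for Actg2, -2.49 for Myh11, -2.32 for Adcy7, -2.06 for Itgbl1 and -2.03 for RP24-297H17.3.

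Genes with many counts shifted less on the XX side, by 1.18 for Sned1, 0.98 for Tgfbi, 0.93 for Igf1, 0.82 for Igfbp5, 0.82 for Tenm4 and 0.79 for Slit2. On the XY side the shift was -2.66 for Ptch1, -2.08 for Penk, -1.16 for Timp3 and -0.92 for Hsp90b1.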

How the results depend on the processing

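The 4700 calls between the sexes came to 3474 to 5534 when 1 library was left out, 4825 with DESeq2, 4374 with a minimum of 1 CPM and 3579 in the fit of the 6 E16.5 libraries. The paired fit with the replicate number as a block gave 5672 (2771 higher in XX and 2901 higher in XY), and 5027 with the 6 libraries alone. Genes at least 2-fold different numbered 1098 to 1398 when 1 library was left out. The 1715 interaction calls came to 2578 without E16.5 XY replicate 1, to 1280 to 2578 over all libraries left out, to 2488 with the block and to 2034 with DESeq2; the cause was not tested. Of 328 called genes among 552 in the lists and named set, 260 lost their call under none of the 14 settings and 0 changed sign. A gene that the filter of a setting removed was not tested there, and this was not counted as a loss. The 36 genes named by rule kept their call. The share of calls higher in XX ranged from 45.2% to 48.9% over all settings. Depth limits statements on genes near the floor, such as Shh, Hsd11b1 and Gata4.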

Other observations

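The groups below were chosen after their values were seen, so their counts describe and test nothing. Of all autosomal genes tested, 13.3% were higher in XX and 14% were higher in XY. Of 15 genes best known from neurons (receptors for glutamate and GABA, synaptic adhesion genes and the neurofilament chains Nefm and Nefl, which overlap), 13 were higher in XX, and Gria4 and Gabrb1 were not called. Negr1, a neuronal adhesion protein, read 70.7, 72.5 and 74.7 CPM in XX and 20.6, 19.6 and 18.6 CPM in XY. Gria2, a glutamate receptor subunit, read 19.1, 21.3 and 21.8 CPM against 6.59, 4.22 and 3.51 CPM, and Nefm, a neurofilament chain, 42, 42 and 42.4 CPM against 9.64, 12.4 and 11.9 CPM. No XX library of these 3 genes fell among the XY libraries. The neural and glial marker list had no called member.

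Of 8 genes that glucocorticoid or androgen induce in other tissues, 6 were higher in XY, against 14% of all autosomal genes. The 6 include Fkbp5, already named above. Fbxo32, a ubiquitin ligase component, measured 54, 60.2 and 50 CPM in XX and 187, 212 and 209 CPM in XY. Zbtb16, a zinc-finger factor, read 2.01, 1.97 and 2.8 CPM against 11.6, 12.1 and 13.9 CPM, and Per1 and Sgk1 were not called. All 4 type IV collagen chains examined were higher in XY, the widest being Col4a4 at 6.02, 6.55 and 5.78 CPM in XX and 57.9, 56 and 50.3 CPM in XY. Among 14 chaperones of the endoplasmic reticulum, 6 were higher in XY. Hsp90b1 differed by -1.55 on the log2 scale, and Hspa5 was not called at -0.09.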
